A study of Mus musculus with 16 samples.

Results

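Small RNAs of wild-type (WT) mouse tracheal epithelial cultures were compared between day 14 and day 0 at an air-liquid interface. The members are all small RNAs of any class that carry a value at both days, which were 304 of the 1264 distinct rows of the deposited table. By class these were 166 microRNAs (miRNAs), 112 small nucleolar RNAs (snoRNAs), 15 ribosomal RNA (rRNA) rows, 5 piRNA-annotated rows, 4 small nuclear RNAs (snRNAs) and 2 unnamed predicted miRNAs. Of these, 279 had enough signal at both days to be tested. The compared groups are WT cultures at day 14 and WT cultures at day 0, with 2 biological replicate libraries each, numbered 2 and 3. Cultures from mice with a global p73 knockout (KO), also 2 libraries per day, are used beside them, and WT cultures at days 4 and 7 give the time between. All groups are primary cells of the trachea, grown on Transwell membranes and then held at the air-liquid interface. p73, a relative of p53, is a transcription factor. The number of animals behind a culture is not given in the sources used here.

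Exposure of such cultures to air lets a basal epithelial layer form multiciliated and secretory cells, which makes them a standard model of airway differentiation. A miRNA is cut from a hairpin transcript, and either arm of the hairpin (5p or 3p) can be loaded into an Argonaute protein. The loaded strand finds its mRNA targets mainly through its seed, bases 2 to 8, so miRNAs with the same seed can act on overlapping targets. The miR-34 and miR-449 families share a seed and are known for their requirement in multiciliated cell formation. snoRNAs guide chemical modification of rRNA and are mostly cut from introns of genes for the translation machinery.

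The mature sequences below, from RefSeq on GRCm38.p6, are those on which the main results turn, written 5′ to 3′ with the seed in capitals. Those with the miR-34 and miR-449 seed are shown because the 2 miR-449 rows had the largest rises of all members.
miR-449a-5p: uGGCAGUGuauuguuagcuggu
miR-449c-5p: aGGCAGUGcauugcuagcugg
miR-34a-5p: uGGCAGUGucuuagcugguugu
miR-34b-5p: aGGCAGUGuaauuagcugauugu
The miR-92 and miR-25 seed is shown because miR-92b-3p came to be the most abundant small RNA while its relatives did not pass the test.
miR-92b-3p: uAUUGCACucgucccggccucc
miR-92a-3p: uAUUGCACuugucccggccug
miR-25-3p: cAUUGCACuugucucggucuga
The next seeds are shown because each holds an abundant member that did not pass beside a scarce one that did.
miR-99a-5p: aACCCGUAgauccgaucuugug
miR-100-5p: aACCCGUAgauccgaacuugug
miR-99b-5p: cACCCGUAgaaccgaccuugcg
miR-351-5p: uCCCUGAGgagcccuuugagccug
miR-125a-5p: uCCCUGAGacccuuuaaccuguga
miR-125b-5p: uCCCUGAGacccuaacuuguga
The arms of miR-210 are shown because they had the largest fall.
miR-210-5p: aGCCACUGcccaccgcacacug
miR-210-3p: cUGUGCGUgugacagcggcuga

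Between the days, 40 of 279 tested small RNAs (14.3%) passed an adjusted p of 0.05 in limma, of which 18 rose (6.45%) and 22 fell (7.89%). miR-449a-5p, then miR-92b-3p, then miR-375-3p led the rises, and they were more than an order of magnitude higher at day 14. The falls were led by both arms of miR-210, miR-125b-1-3p and miR-351-5p. The rises held 13 miRNAs, 4 snoRNAs and 1 piRNA-annotated row, and the falls 21 miRNAs and 1 snoRNA. In each of the 40, the day 14 libraries lay wholly above or wholly below the day 0 libraries. Over all tested members this separation was met by 27.6% in the higher direction and 28.7% in the lower, so most separated members were not past the threshold. The median log2 change over all tested members was -0.11, a value held near 0 by the shift between days described below.

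**Figure D1:**
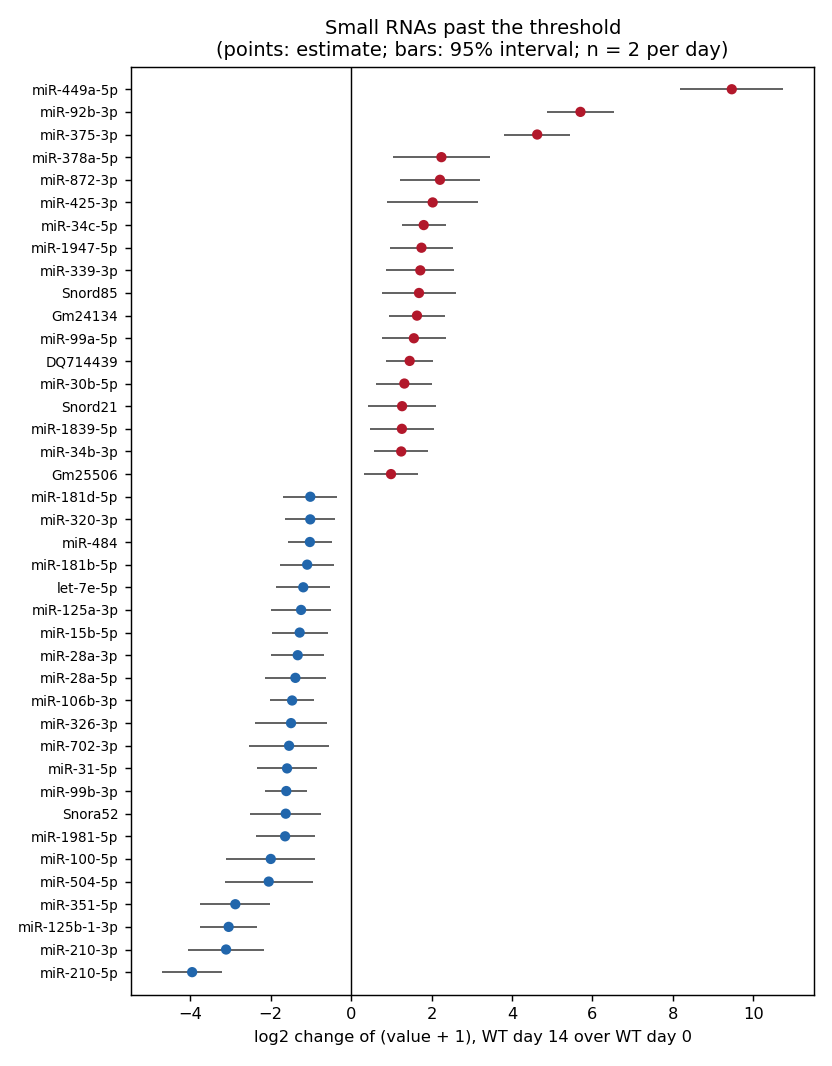
The log2 change of WT day 14 over WT day 0 (horizontal axis, on value + 1) is drawn for each of the 40 small RNAs past the threshold, with its 95% interval from limma. miR-449a-5p, at 9.46, stands apart at the upper end and miR-210-5p, at -3.95, at the lower end.

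All values are normalised reads: the authors' per-day normalised values, moved by 1 shift per day so that days can be compared. Changes are log2 of the value plus 1, with p-values adjusted by Benjamini-Hochberg over the 279 tested members. The libraries held 1777273 and 432452 reads at WT day 14, against 197497 and 255560 reads at WT day 0. The median absolute log2 difference between the replicates of a day was 0.28 at day 14 and 0.55 at day 0, so the day 0 libraries were both shallower and more variable. With the replicate number as a block, 63 passed, of which 33 rose. Without the day shift, 39 of 53 calls were rises, and with scaling to library totals there were 5 rises and 131 falls, at a median log2 of -1.08 over all tested. Of the 18 rises, 13 did not pass with library totals, and the other 5 were miR-449a-5p, miR-92b-3p, miR-375-3p, miR-872-3p and miR-34c-5p. With library totals that leave out miR-92b-3p there were 18 rises and 21 falls, and 36 of the 40 calls were kept. Without WT day 14 replicate 3, 17 passed, and without WT day 14 replicate 2, 20 passed. Of the 40, 13 kept their call without each WT library in turn: miR-92b-3p, miR-34c-5p, miR-449a-5p, miR-375-3p, miR-1947-5p, Gm24134, DQ714439, miR-106b-3p, miR-99b-3p, miR-351-5p, miR-125b-1-3p and both arms of miR-210.

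**Figure D2:**
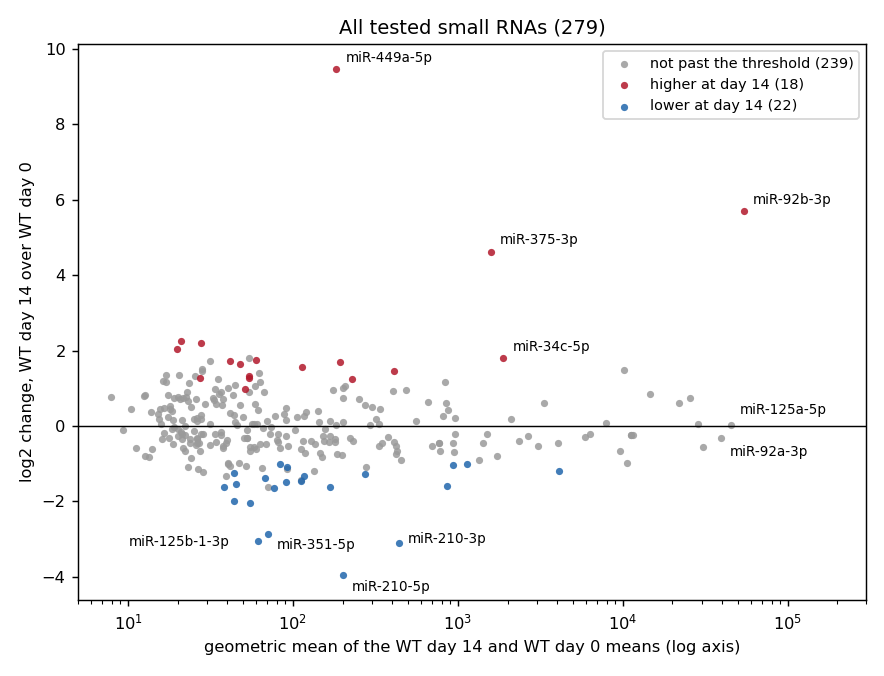
Each point is 1 of the 279 tested small RNAs, with the geometric mean of its WT day 14 and WT day 0 means on the horizontal axis (log axis, normalised reads) and its log2 change on the vertical axis. Of the most abundant small RNAs at the right, miR-92b-3p is far above 0 while miR-125a-5p and miR-92a-3p lie near it.

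Of 5 tested rows of the miR-34 and miR-449 family 3 rose, beside 6.45% of all tested members, and miR-449a-5p had the largest change. miR-449a-5p, the multiciliated cell miRNA from an intron of Cdc20b on chromosome 13 (113037549 to 113037570, plus strand, mm10), had 5118 and 3560 normalised reads in the WT day 14 libraries, against 14.1 and 1.43 in the WT day 0 libraries. The day 0 values rest on 7 reads and 1 read, and the groups are far apart. Its log2 change was 9.46 (SE 0.60, limma adjusted p = 4.06e-08). Counted over both libraries, the ratio was 716, with a 95% interval of 363.2 to 1658.6 that covers counting error only. Cultures with fewer cells of a type and cultures with less of an RNA per cell cannot be told apart in these bulk libraries, here or in any result below.

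miR-449c-5p lies in the same intron (chromosome 13, 113036008 to 113036028) and had the highest day 14 level of the family. It had 5776 and 5958 normalised reads at WT day 14, against 6.02 and 8.63 at WT day 0, where it rested on 3 and 6 reads. Too few libraries reached the filter at day 0 for it to be tested. Its ratio by counting was 771 (95% interval 406 to 1686). The unnamed predicted row of the same intron (chromosome 13, 113037468 to 113037488, plus strand) lies within the annotated gene Mir449b (113037419 to 113037498). It had 29.5 and 29.1 normalised reads at WT day 14, against no read in either WT day 0 library. Its pooled day 14 value was 11.7 times a floor of 3 reads in both day 0 libraries together. The lower 95% limit of its counting ratio was 9.31.

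Of the rows from the other locus of the family, on chromosome 9, miR-34c-5p and miR-34b-3p rose. miR-34c-5p (51103076 to 51103098, minus strand, in no annotated host gene) had 3871 and 3183 normalised reads at WT day 14, against 1084 and 928 at WT day 0. The groups did not overlap, and the log2 change was 1.81 (SE 0.26, limma adjusted p = 0.000178). miR-34b-3p, from the neighbouring hairpin, had 307.5 and 398 normalised reads at WT day 14 and 139 and 155.3 at WT day 0, a log2 change of 1.25 (SE 0.31, limma adjusted p = 0.0150). It lost its call without WT day 0 replicate 2 (adjusted p = 0.0548) and without WT day 14 replicate 3 (adjusted p = 0.148). miR-34b-5p, which was not tested for lack of signal at day 0, had 44.0 and 25.7 normalised reads at WT day 14 and 6.02 and 7.20 at WT day 0. Its counting ratio of 6.01 (95% interval 2.95 to 14.3, counting error only) is descriptive, since the row is a member only through its day 14 values. miR-34c-3p, with 88.1 and 99.4 at WT day 14 and 34.1 and 50.3 at WT day 0, did not pass (log2 1.16, limma adjusted p = 0.0848). miR-34a-5p, encoded alone on chromosome 4 and known as a p53 target, overlapped between days, with 42.7 and 53.1 at WT day 14 and 50.2 and 30.2 at WT day 0.

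Within the family the leading member changed. The 5 rows for 5p arms (miR-34a, miR-34b, miR-34c, miR-449a and miR-449c) summed to 14853 and 12780 normalised reads at WT day 14, against 1161 and 975 at WT day 0, a ratio of means of 12.9. miR-34c-5p held 26.1% and 24.9% of this sum at WT day 14, against 93.4% and 95.1% at WT day 0. The 2 miR-449 rows held 73.4% and 74.5% at WT day 14, against 1.73% and 1.03% at WT day 0. Of the 9 rows of the family list in the table, 7 had values at both days and 5 were tested. The tested rows had a median log2 change of 1.25 beside -0.11 over all tested members, where the day shift holds the median near 0.

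miR-92b-3p became the most abundant small RNA. This miRNA, from a locus on chromosome 3 (89227126 to 89227147, minus strand) apart from the clusters of its relatives, had 431160 and 350595 normalised reads at WT day 14, against 6608 and 8443 at WT day 0. The lowest day 14 library was above the highest day 0 library by more than an order of magnitude, and the log2 change was 5.70 (SE 0.39, limma adjusted p = 6.72e-08). It ranked 1 in both WT day 14 libraries, with 55.07% and 47.30% of all values, and 15 and 10 in the WT day 0 libraries, with 1.67% and 2.30%. The opposite arm of the hairpin, miR-92b-5p, had 108 and 122 normalised reads at WT day 14 and 2.004 and 2.88 at WT day 0, on 1 and 2 reads. Its counting ratio was 44.2 (95% interval 14.98 to 215, counting error only). This row too was not tested and is a member only through its day 14 values, so the ratio is descriptive.

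None of the relatives with the seed of miR-92b passed the test. miR-92a-3p, known from the miR-17 to miR-92 clusters of dividing cells, had 36310 and 33651 normalised reads at WT day 14 and 44623 and 43217 at WT day 0 (log2 -0.33, limma adjusted p = 0.472). miR-25-3p, within the replication gene Mcm7, had 582 and 719.9 at WT day 14 and 1163 and 666 at WT day 0 (log2 -0.44, limma adjusted p = 0.355). Summed over the 3 rows with this seed, values were 468051 and 384966 at WT day 14 against 52394 and 52326 at WT day 0, a ratio of means of 8.15. At day 14 almost all of that sum was miR-92b-3p, and at day 0 most of it was miR-92a-3p. Scaling to library totals, which takes in this rise, turned the small positive changes of miR-125a-5p, let-7c-5p, miR-148b-3p, miR-181a-2-3p and miR-200b-3p to negative ones of -0.97 to -0.90 that passed there.

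miR-375-3p, a miRNA known from neuroendocrine and secretory cells, rose next. It had 7936 and 7871 normalised reads at WT day 14, against 335 and 303.5 at WT day 0, with no overlap. The log2 change was 4.63 (SE 0.39, limma adjusted p = 5.75e-07). It lies on chromosome 1 (74900661 to 74900682, minus strand) in no annotated host gene.

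The other miRNAs that rose were at low to moderate levels. miR-99a-5p, from an intron of its host RNA Mir99ahg on chromosome 16, had 169 and 214.3 normalised reads at WT day 14 and 88.3 and 46.0 at WT day 0 (log2 1.56, SE 0.37, limma adjusted p = 0.0125). miR-872-3p, from an intron of Ift74, a gene of intraflagellar transport in cilia, had 81.9 and 42.8 at WT day 14 and 10.04 and 14.4 at WT day 0 (log2 2.21, limma adjusted p = 0.00511). miR-1947-5p, from an intron of the protease gene Lmln, had 118 and 105 at WT day 14 and 30.1 and 34.5 at WT day 0 (log2 1.75, limma adjusted p = 0.00511). None of these pairs of groups overlapped. miR-30b-5p, whose family is high in differentiated epithelia, had 101 and 70.3 at WT day 14 and 42.2 and 25.9 at WT day 0 (log2 1.33, limma adjusted p = 0.0142). miR-339-3p rose by a log2 change of 1.72, miR-378a-5p by 2.25, miR-425-3p by 2.03 and miR-1839-5p by 1.26. The locus of miR-1839-5p is also listed as a longer snoRNA row, Mir1839, which did not pass (log2 1.07, limma adjusted p = 0.0557).

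Several of these smaller rises rest on single libraries. Without WT day 0 replicate 2 the log2 change of miR-378a-5p was 1.37 (limma adjusted p = 0.125) and that of miR-1839-5p 0.79 (adjusted p = 0.225). Without WT day 0 replicate 3 it was 1.19 for miR-425-3p (adjusted p = 0.139), while miR-99a-5p and miR-30b-5p had an adjusted p of 0.0854 each. miR-425-3p rests on 8 and 3 reads at day 0 and miR-378a-5p on 2 and 11. Without WT day 14 replicate 3, miR-378a-5p, miR-425-3p, miR-339-3p, miR-99a-5p and miR-1839-5p were not past the threshold (limma adjusted p 0.125 to 0.151). Without WT day 14 replicate 2 the same held for miR-872-3p, miR-425-3p, miR-30b-5p and miR-1839-5p (adjusted p 0.0587 to 0.132).

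The largest falls were those of miR-210, the miRNA induced by hypoxia. Its 5p arm (chromosome 7, 141221445 to 141221466, minus strand) had 47.6 and 53.1 normalised reads at WT day 14, against 669 and 935 at WT day 0. Its 3p arm (141221407 to 141221428) had 151.5 and 145.7 at WT day 14, against 1273 and 1299 at WT day 0. Neither arm overlapped between days. The log2 change was -3.95 for the 5p arm (SE 0.35, limma adjusted p = 9.51e-07) and -3.10 for the 3p arm (SE 0.44, limma adjusted p = 0.000178). The 3p arm made up 0.0194% and 0.0197% of all values at WT day 14, against 0.321% and 0.353% at WT day 0.

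Within the miR-99 and miR-100 seed, members that differ by few bases moved in opposite directions. miR-100-5p, encoded beside let-7a and miR-125b on chromosome 9 (41531437 to 41531458), fell. It had 21.1 and 22.3 normalised reads at WT day 14 and 84.3 and 94.9 at WT day 0, with no overlap (log2 -1.99, SE 0.52, limma adjusted p = 0.0156). miR-99a-5p rose, as given above. miR-99b-5p, by far the most abundant of the 3, had 24733 and 32841 at WT day 14 and 22096 and 33915 at WT day 0, which overlap (log2 0.06, limma adjusted p = 0.948). The sum over the seed was 24923 and 33077 at WT day 14 and 22268 and 34055 at WT day 0, a ratio of means of 1.03. miR-100-5p was not past the threshold without WT day 0 replicate 3 (adjusted p = 0.0667), WT day 14 replicate 2 (0.0925) or WT day 14 replicate 3 (0.106).

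Within the miR-125 and miR-351 seed only miR-351-5p passed. miR-351-5p, from a cluster on chromosome X (53053315 to 53053338) with miR-322 and miR-503, had 20.7 and 30.9 normalised reads at WT day 14, against 219 and 168 at WT day 0. The groups did not overlap, and it fell by a log2 change of -2.88 (SE 0.41, limma adjusted p = 0.000178). miR-125b-5p had 52.9 and 54.9 at WT day 14 and 16.1 and 30.2 at WT day 0, higher at day 14 but not past the threshold (log2 1.25, limma adjusted p = 0.305). miR-125a-5p, the dominant member, had 43966 and 46143 at WT day 14 and 35969 and 54058 at WT day 0 (log2 0.03, limma adjusted p = 0.952). The seed summed to 44040 and 46229 at WT day 14 and 36203 and 54256 at WT day 0, a ratio of means of 0.998. miR-125b-1-3p, the opposite arm of a miR-125b hairpin on chromosome 9 (41581980 to 41582001), had 23.3 and 18.9 at WT day 14, against 179 and 181 at WT day 0 (log2 -3.04, SE 0.33, limma adjusted p = 1.08e-05).

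The cluster of miR-99b, let-7e and miR-125a in the gene Spaca6 on chromosome 17 gave 3 further falls while its 2 most abundant arms overlapped between days. miR-99b-3p had 96.5 and 96.0 normalised reads at WT day 14, against 281 and 311 at WT day 0 (log2 -1.61, SE 0.24, limma adjusted p = 0.000306). let-7e-5p had 2861 and 2581 at WT day 14, against 6009.8 and 6368 at WT day 0 (log2 -1.19, limma adjusted p = 0.0176). miR-125a-3p had 24.7 and 30.9 at WT day 14, against 52.2 and 84.9 at WT day 0 (log2 -1.24, limma adjusted p = 0.0236). let-7e-5p was the only 1 of 11 tested let-7 rows to pass, with a median of -0.21 over the family and changes of -1.19 to 1.06. Calls of let-7e-5p and miR-125a-3p were lost without WT day 0 replicate 3 or without either WT day 14 library (limma adjusted p 0.0527 to 0.161) and without the day shift (0.0612 and 0.0643).

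miR-31-5p, a miRNA of basal and stratified epithelium, fell. It had 599 and 389 normalised reads at WT day 14, against 1713 and 1236 at WT day 0, with no overlap (log2 -1.59, SE 0.35, limma adjusted p = 0.00727; adjusted p = 0.125 without WT day 14 replicate 3). miR-205-5p, known for high levels in basal cells, had 7518 and 7471 at WT day 14 and 17845 and 12313 at WT day 0. Its day 14 libraries were both lower, and the change did not pass (log2 -0.98, limma adjusted p = 0.136). miR-203-3p, linked to differentiated squamous epithelium, was at 25.1 and 12.002 at WT day 14 and 18.1 and 8.63 at WT day 0, which overlap.

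miR-106b-3p and miR-15b-5p fell. miR-106b-3p, from an intron of Mcm7, a gene of DNA replication, had 64.8 and 70.3 normalised reads at WT day 14, against 189 and 187 at WT day 0 (log2 -1.46, SE 0.26, limma adjusted p = 0.00146). miR-15b-5p, from an intron of the condensin gene Smc4, had 197 and 153 at WT day 14, against 361 and 490.5 at WT day 0 (log2 -1.28, SE 0.32, limma adjusted p = 0.0153). Neither overlapped. miR-15b-5p was not past the threshold without WT day 0 replicate 3 (adjusted p = 0.0807) or WT day 14 replicate 3 (0.148). Of the 11 rows of the miR-17 and miR-106b clusters in the table only 2 had values at both days, so the level of most of that group at day 14 is not known. Besides miR-106b-3p this was miR-93-5p, also within Mcm7, which had 274 and 273 at WT day 14 and 456 and 347 at WT day 0 and did not pass (log2 -0.54, limma adjusted p = 0.217), nor did miR-25-3p of the same gene.

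Both arms of miR-28a, from an intron of Lpp, fell together. The 3p arm had 67.0 and 78.8 normalised reads at WT day 14, against 221 and 152.5 at WT day 0 (log2 -1.32, limma adjusted p = 0.0102). The 5p arm had 45.4 and 36.0 at WT day 14, against 144.6 and 79.1 at WT day 0 (log2 -1.38, limma adjusted p = 0.0156). Neither overlapped between days, and their call was lost without WT day 0 replicate 2 (adjusted p = 0.0580 and 0.130) or WT day 14 replicate 2 (0.0840 and 0.0550), that of the 5p arm also without WT day 14 replicate 3 (0.148). miR-151-3p, of the same family and among the 10 most abundant members, had 20538 and 29138 at WT day 14 and 28148 and 46580 at WT day 0 and overlapped (log2 -0.57, limma adjusted p = 0.248).

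Of 4 tested miR-181 rows 2 fell, miR-181b-5p and miR-181d-5p, beside 7.89% of all tested members. miR-181b-5p had 49.3 and 77.1 normalised reads at WT day 14, against 150.6 and 117 at WT day 0 (log2 -1.09, limma adjusted p = 0.0294). miR-181d-5p had 57.3 and 59.99 at WT day 14, against 120.5 and 118 at WT day 0 (log2 -1.01, limma adjusted p = 0.0434). Both calls were absent in edgeR (adjusted p = 0.0792 and 0.0985) and in DESeq2 (0.0613 and 0.0832) on recovered reads. Neither passed without the day shift (limma adjusted p = 0.0945 and 0.130) or with only the 4 WT libraries (0.139 and 0.125). With 1 WT library left out, log2 changes were -1.41 to -0.77 for miR-181b-5p and -1.04 to -0.98 for miR-181d-5p. Neither kept its call in all of those fits.

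The remaining miRNAs that fell ranged from -2.04 to -1.01. miR-320-3p and miR-484, both made without the usual nuclear processing, had log2 changes of -1.01 and -1.02. miR-320-3p had 767 and 836 normalised reads at WT day 14, against 1418 and 1844 at WT day 0, and miR-484 had 666 and 646 at WT day 14, against 1313 and 1354 at WT day 0. Neither overlapped, and neither was past the threshold without WT day 14 replicate 2 or 3 (limma adjusted p 0.0840 to 0.161) or without the day shift (0.0999 and 0.0602). miR-1981-5p fell with a log2 change of -1.64 and lost its call without WT day 14 replicate 3 (adjusted p = 0.0600). miR-504-5p, miR-326-3p and miR-702-3p fell too, and their day 0 libraries differed widely, at 58.2 and 187, 88.3 and 234.5, and 48.2 and 114 normalised reads. Without WT day 0 replicate 3 their changes were -1.21, -0.79 and -0.93 in place of -2.04, -1.49 and -1.54, and none passed (adjusted p = 0.132, 0.226 and 0.265).

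The epithelial miR-200 family, the check on the labelled tissue, was abundant at both days. miR-200b-3p had 7644 and 8370 normalised reads at WT day 14 and 9259 and 6277 at WT day 0. Of 8 tested rows of the family none passed, with changes of -0.99 to 0.94 and a median of 0.14. Of 12 miRNA rows that mark mesenchymal, endothelial, blood or muscle cells, none had a value at day 14, where only 304 of 1264 rows had one. Low rows are blank at that day, so the level of these 12 there is not known. At WT day 0 these rows summed to 22.1 and 38.8 normalised reads, and 7 and 6 of the 11 with a value were at 0. Other abundant members did not pass. miR-191-5p had 31502 and 34452 at WT day 14 and 22529 and 17455 at WT day 0 (log2 0.73, limma adjusted p = 0.135), with no overlap. miR-10a-5p had 19751 and 31788 at WT day 14 and 27810.2 and 9692 at WT day 0, which overlap (log2 0.61, limma adjusted p = 0.346). miR-30d-5p had 15907 and 23509 at WT day 14 and 11863 and 9693 at WT day 0, with no overlap (log2 0.85, limma adjusted p = 0.106), and miR-27b-3p overlapped (log2 -0.25).

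Several other families held no call, which says little at 3 to 6 rows each when 14.3% of all tested members were called. None of 6 tested miR-23, miR-27 and miR-24 rows, 3 of miR-221 and miR-222, 4 of the miR-183 cluster, 3 of the miR-148 family or 4 of the inflammation-linked miR-21, miR-146 and miR-155 rows passed, with medians of -0.67 to 0.02. The largest positive and negative changes among them, neither past the threshold, were those of miR-96-5p of the miR-183 cluster, at 44.5 and 49.7 normalised reads at WT day 14 and 22.1 and 11.5 at WT day 0 (log2 1.5, limma adjusted p = 0.217), and miR-222-3p, at 383 and 269 at WT day 14 and 787 and 460.3 at WT day 0 (log2 -0.91, limma adjusted p = 0.0844). miR-22-3p, a broadly expressed miRNA, was just outside the threshold. It had 16066 and 14209 at WT day 14, against 11090 and 2580.5 at WT day 0, with no overlap (log2 1.5, limma adjusted p = 0.0538). miR-455-3p had 55.5 and 166 at WT day 14, against 26.1 and 27.3 at WT day 0 (log2 1.81, limma adjusted p = 0.177), and miR-92a-1-5p had 47.6 and 32.6 at WT day 14, against 110.4 and 135 at WT day 0 (log2 -1.61, limma adjusted p = 0.268).

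Among 99 tested snoRNAs, 4 rose and 1 fell, beside 6.45% higher and 7.89% lower over all tested members, at a class median of 0.10 beside -0.21 over the 158 tested miRNAs. Snord85, a box C/D snoRNA, had 306 and 392.5 normalised reads at WT day 14, against 108 and 105 at WT day 0 (log2 1.69, SE 0.43, limma adjusted p = 0.0156). Gm24134, within the ribosomal protein gene Rpl7a, had 83.3 and 87.4 at WT day 14, against 26.1 and 27.3 at WT day 0 (log2 1.64, SE 0.32, limma adjusted p = 0.00367). Snora52, within the ribosomal protein gene Rplp2, fell, with 24.2 and 18.9 at WT day 14, against 76.3 and 60.4 at WT day 0 (log2 -1.62, SE 0.41, limma adjusted p = 0.0153). None of these overlapped. Snord21, within Rpl5, and Gm25506, within Tnpo2, rose with log2 changes of 1.27 and 0.99. None of Snord85, Snord21, Gm25506 and Snora52 passed without WT day 14 replicate 2 (limma adjusted p 0.0550 to 0.181) or replicate 3 (0.144 to 0.257), and Gm25506 also with DESeq2 size factors (0.0557). snoRNAs of up to 100 bases had a median of -0.02 over 68 rows, and longer ones 0.36 over 31.

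**Figure D3:**
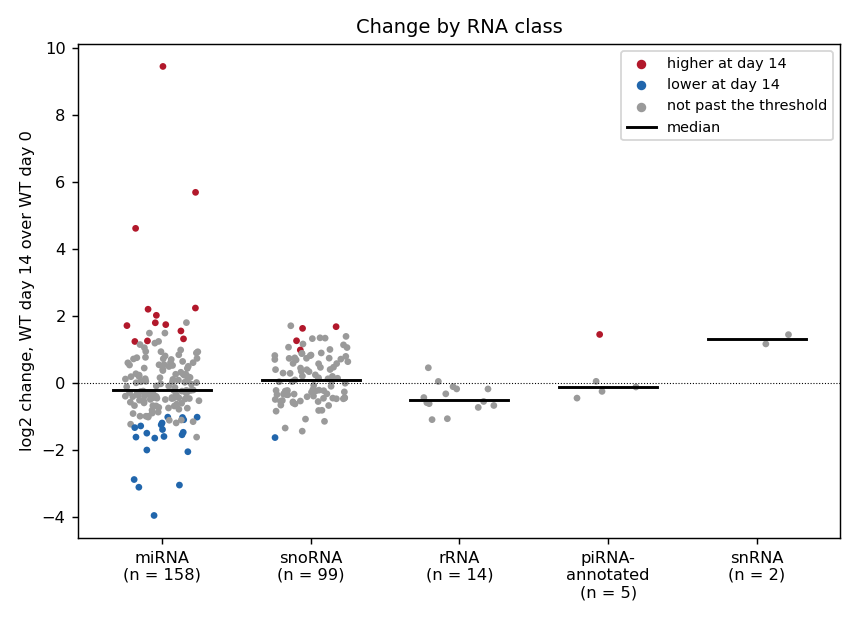
The log2 change of WT day 14 over WT day 0 is drawn for each tested small RNA by class, with the class median as a bar and members past the threshold in colour. The rRNA rows lie mostly below 0, at a median of -0.49, and none of the 14 is coloured.

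The 14 tested rRNA rows had a median of -0.49, and none passed in limma. Of them, 4 were lower at day 14 in both libraries, beside 28.7% of all tested members. The 2 tested snRNAs, Gm24265 and Rnu11, had log2 changes of 1.45 and 1.17, not past the threshold (limma adjusted p = 0.177 and 0.212). As shares of all values, miRNAs held 97.1% and 96.8% at WT day 14, against 92.5% and 93.9% at WT day 0. rRNA rows held 0.148% and 0.134% at WT day 14, against 0.400% and 0.520% at WT day 0, and snoRNAs 1.35% and 1.37%, against 2.41% and 2.95%. These shares move with miR-92b-3p. DQ714439 was the piRNA-annotated row that rose, with 599.994 and 759 normalised reads at WT day 14, against 219 and 275 at WT day 0 (log2 1.46, SE 0.27, limma adjusted p = 0.00206). It did not pass with library totals (log2 0.46, adjusted p = 0.184) or with only the 4 WT libraries (adjusted p = 0.0511). The most abundant piRNA-annotated row, DQ562379, followed miR-182-5p to within 1.89% in every library, and DQ695413 followed miR-25-3p to within 0.622%. Without these 2 rows piRNA-annotated rows held 0.0866% and 0.124% of all values at WT day 14 and 0.110% and 0.171% at WT day 0.

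The intermediate WT days place the changes in time. Both share the day 0 libraries with the day 14 comparison, so their changes are given side by side and not as independent evidence. Of the 18 rises, 3 were past the threshold at day 4 and 8 at day 7, with medians of 0.87, 1.22 and 1.71 at days 4, 7 and 14. Of the 22 falls, 5 were past it at day 4 and 13 at day 7, with medians of -0.998, -1.28 and -1.51. Over all tested members, 2.87% of 279 were called at day 4 and 8.42% of 273 at day 7, where 6 rows were blank. miR-449a-5p had log2 changes of 8.22, 9.18 and 9.46 at days 4, 7 and 14. Its WT day 4 libraries, at 2155 and 1521 normalised reads, lay far above those of day 0 and below both of day 14. miR-34c-5p had -0.02, 0.80 and 1.81, with 1033 and 952 normalised reads at day 4 and 1537 and 1999 at day 7, so its day 4 libraries overlapped those of day 0. miR-210-5p had 154.5 and 242 at day 4 and 70.9 and 103 at day 7, a fall already past the threshold at day 4 (limma adjusted p = 0.00282).

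**Figure D4:**
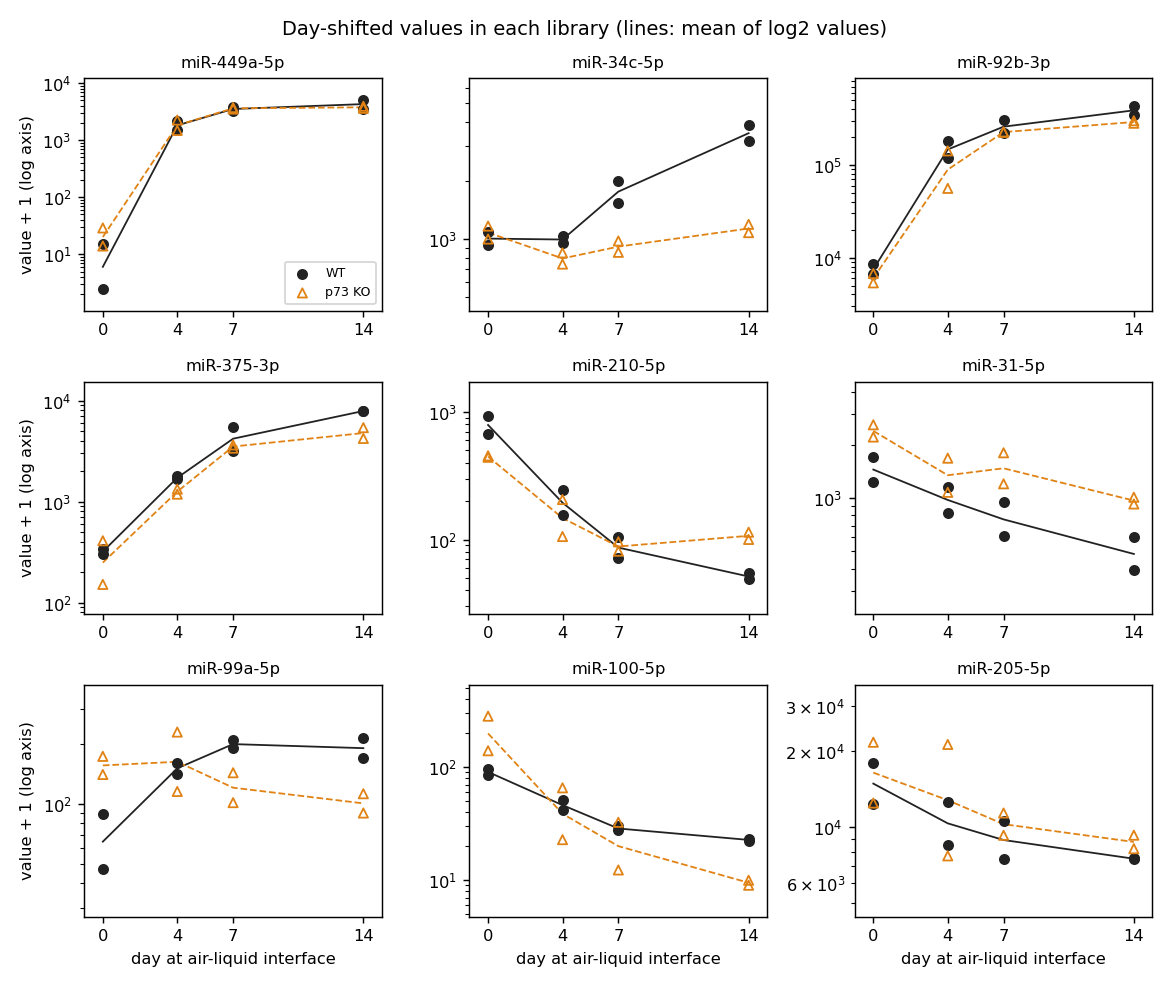
Normalised reads plus 1 (log axis) are drawn against the day at the air-liquid interface for 9 miRNAs, with WT libraries as filled circles, p73 KO libraries as open triangles and lines through the mean of log2 values. miR-449a-5p in WT is at 2155 and 1521 at day 4, far above day 0 and below day 14, while miR-34c-5p in WT is near its day 0 level at day 4 and higher at days 7 and 14.

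In the KO cultures 81 of 279 were called between day 14 and day 0 (29.0%). Of the 18 WT rises, 9 also rose in KO (50% of the WT rises and 25.7% of the KO rises), and of the 22 WT falls, 16 also fell (72.7% of the WT falls and 34.8% of the KO falls). Over all tested members, 12.5% rose and 16.5% fell in KO. All 22 WT falls and 14 of the 18 WT rises had the same sign in KO. The share of all tested members with the same sign in both genotypes is not given here. The leading rises passed in both genotypes, at log2 changes of 9.46 in WT and 7.54 in KO for miR-449a-5p, 5.70 in WT and 5.6 in KO for miR-92b-3p, and 4.63 in WT and 4.26 in KO for miR-375-3p. miR-34c-5p had 1076 and 1188 normalised reads at KO day 14 and 1164 and 997 at KO day 0, which overlap, and a log2 change of 1.81 in WT and 0.07 in KO. The 4 rises with the opposite sign in KO were miR-378a-5p, miR-425-3p, miR-99a-5p and miR-34b-3p.

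The difference between the genotypes was tested as an interaction of genotype and day, and none of 279 passed in limma (0.0%) or in edgeR, while 52 had an unadjusted p under 0.05 (18.6%). The lowest adjusted p values were those of miR-34c-5p (0.0732; WT minus KO 1.74, SE 0.36), miR-34b-3p (0.0854; 1.84) and miR-99a-5p (0.0854; 2.2). With the replicate number as a block 14 passed, 9 of them higher in WT, among them these 3 miRNAs, miR-34c-3p and miR-100-5p (2.39), whose fall was -1.99 in WT and -4.38 in KO. miR-210-5p was among those lower in WT there, with -3.95 in WT and -2.07 in KO. Without WT day 0 replicate 2, 12 passed.

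**Figure D5:**
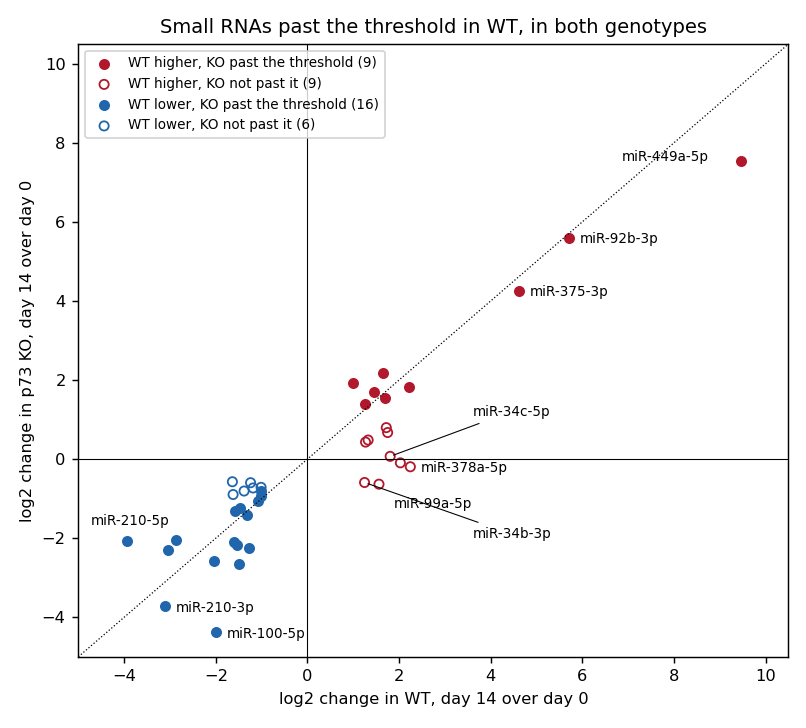
The log2 change between day 14 and day 0 in WT (horizontal axis) is drawn against that in p73 KO (vertical axis) for the 40 small RNAs past the threshold in WT, filled where KO also passed, with equal changes on the dotted line. miR-92b-3p and miR-375-3p lie near the line, and miR-34c-5p lies near 0 in KO at 1.81 in WT.

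The table limits which falls could be seen. It lists 304 rows with day 14 values and 1229 with day 0 values, and 925 rows with a day 0 value have none at day 14. The lowest mean over the 4 libraries of day 14 among the members was 14.97 in deposited units, so rows below about that level appear blank there. Of the 925, 64 had a WT day 0 mean of at least 10, and 3 had at least 50: miR-127-3p with 150.6 and 59.0 normalised reads, miR-1306-5p with 28.1 and 83.4 and miR-1247-5p with 50.2 and 57.5. miR-127-3p belongs to an imprinted cluster on chromosome 12, Dlk1-Dio3, and none of its 25 rows in the table had a value at both days. Whether these rows fell further than the members cannot be read from the table.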

How the data were processed

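Small RNA was sequenced in 16 libraries: WT and p73 KO cultures at days 0, 4, 7 and 14, with 2 libraries per group. Extraction used an RNeasy kit and library preparation a TruSeq RNA kit, per the labels' protocols. mm10 and DESeq2, with no version, are named in the submitters' processing notes. No aligner, annotation or counting tool is stated there. The values deposited by the authors are headed as read counts but are a normalised signal: counts divided by a size factor within each day. Each library's values are multiples of what 1 read is worth, which gave back whole reads (the worth was searched between 0.3 and 2.2, tolerance 0.0055), and all low values came out whole (100%). At days 7 and 14 low rows are blank, so the step there is less certain. Depth in the WT groups compared was 197497 to 1777273 reads. Because reads carry no molecular identifiers, counting intervals leave out amplification error.

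The planned count test was replaced because the values are not counts. Each day was moved by its median log2 ratio over the 287 rows above 0 in all libraries (0.25, 0.18, -0.42 and -0.05 at days 0, 4, 7 and 14). limma 3.58.1 in R 4.3.3, with a variance trend, was fitted to log2 of the value plus 1 over all 16 libraries and 8 groups. A row was tested when, at both days, 2 or more of 4 libraries reached 10 deposited units. Benjamini-Hochberg adjustment ran over 279 rows with a threshold of 0.05. A fold change on this scale understates the change of low rows. Alternatives were pseudocounts of 5 and 0.1, no filter, a filter of 50, other scalings, the 4 WT libraries alone, a replicate block, leaving out each library, and edgeR 4.0.16 and DESeq2 1.42.0 on recovered reads. The fit was tested on simulated data. 5 predicted rows that repeat a named miRNA were left out.

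Replicates are described in the labels as biologically independent. As a check of whether their numbers pair libraries, the replicate difference was correlated between WT days over small RNAs. It gave r = 0.11 to 0.28 in 6 pairs of days, with 0.23 between days 14 and 0. These values are low and leave the pairing uncertain. The main fit has no term for the replicate number, and the fit with that number as a block is given beside it.

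Named small RNAs are all those past the threshold, the tested rows of the family and marker lists (many given by counts and ranges), the 10 most abundant and the 5 largest separated changes in each direction outside the threshold. Of the last group, Gm24148, Gm24453, Gm23201 and miR-298-5p are named only here. Gm24148, a snoRNA within Ncl, had a log2 change of 1.72 (limma adjusted p = 0.0677). Members and lists were chosen with earlier results of these data known. Host genes are from GENCODE M21 (mm10). Of 166 miRNA rows 151 matched RefSeq GRCm38.p6 by name, 148 of them at the same chromosome and start.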

Additional observations from a re-analysis of the deposited data

Results flagged for a closer look

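In 20 of 279 tested members the day 14 libraries lay on opposite sides of the day 0 libraries in WT and KO, without overlap in either. Separation in WT alone was met by 27.6% of all tested members in the higher direction and 28.7% in the lower. Some opposite pairs are thus met without any difference between genotypes, and how many was not computed. Of the 20, 2 were past the threshold in WT, beside 14.3% of all tested members: miR-99a-5p and miR-34b-3p. miR-99a-5p had 169 and 214.3 normalised reads at WT day 14 and 88.3 and 46.0 at WT day 0, but 112 and 89.3 at KO day 14 and 173 and 140.1 at KO day 0. The WT minus KO difference of its log2 changes was 2.2 (limma interaction, adjusted p = 0.0854, not past the threshold). miR-34b-3p had 307.5 and 398 at WT day 14 and 139 and 155.3 at WT day 0, but 117 and 83.9 at KO day 14 and 151.3 and 148 at KO day 0. Its WT minus KO difference was 1.84 (limma interaction, adjusted p = 0.0854, not past the threshold). Both passed with the replicate number as a block. Of the others, 6 fall under the naming rule, and none passed the limma interaction test. Their WT minus KO difference was 4.31 for miR-455-3p and 2.22 for miR-34c-3p (adjusted p = 0.115 each), 1.48 for miR-24-2-5p (0.294), 1.17 for miR-151-5p (0.214), -0.57 for miR-30c-2-3p (0.543) and -1.29 for miR-877-5p (0.268). miR-455-3p and miR-34c-3p passed with the block. Groups of 2 libraries were too small for a check of single outlying samples.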

How the results depend on the processing

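Of the 40 calls, 9 were kept under every alternative in which they were tested, and none reversed. A filter of 50 left 24 of the 40 to test and kept those 24, and miR-449a-5p, among the 9, was not tested there. The 18 rises and 22 falls became 6 and 6 with only the 4 WT libraries, 33 and 30 with the replicate block, and 10 and 19 with a filter of 50. They became 39 and 14 without the day shift, 5 and 131 with library totals, and 18 and 21 with library totals without miR-92b-3p. Leaving out a WT library gave 9 to 22 rises and 8 to 23 falls. The interaction count of 0 was 14 with the block, 14 with library totals, 2 with library totals without miR-92b-3p, 3 with a filter of 50, and 0 to 12 without a library. Alternatives for the interaction on the pseudocount, the filter, the day shift and totals without miR-92b-3p were chosen after seeing the data. All 40 calls were kept with the block, which changed no other call among them. Under library totals the uncalled miR-125a-5p (-0.97), let-7c-5p (-0.90), miR-148b-3p (-0.97), miR-181a-2-3p (-0.95) and miR-200b-3p (-0.93) turned from positive to negative and passed. The cause was not tested. edgeR gave 25 rises and 21 falls, DESeq2 21 and 29, and the fit with no filter 21 and 22 of 304 rows. DESeq2 was not run for the interaction. Depth limits low rows at day 0, where 1 read was worth 1.69 and 1.21 deposited units.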

Other observations

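The opposite arms of 1 hairpin share their transcript, and their ratio is taken within a library. The ratio of 3p to 5p was compared between WT day 14 and WT day 0 for the 31 hairpins with both arms tested, a comparison chosen after the data were seen. In 5 of them the ratio passed in limma, adjusted over the 31. For miR-200a the log2 of 3p over 5p was 4.07 and 4.62 at WT day 14, against 2.06 and 2.78 at WT day 0, a change of 1.93 (95% interval 1.11 to 2.75, limma adjusted p = 0.00129). Neither arm of miR-200a passed alone: the 3p arm had a log2 change of 0.94 and the 5p arm -0.99. For miR-125b the log2 of the 3p arm of hairpin 1 over the 5p arm was -1.15 and -1.49 at WT day 14, against 3.40 and 2.55 at WT day 0, a change of -4.29 (limma adjusted p = 7.67e-06). The 5p arm of miR-125b can also come from a second locus, so this ratio is not of 1 hairpin alone. The ratio changed by -1.27 for miR-125a, 1.62 for miR-1981 and -1.63 for miR-378a (limma adjusted p = 0.0227 each). All but miR-200a hold an arm that passed alone in the same libraries, so those ratios are not independent of its call. The 5p arm of miR-378a rests on 2 and 11 reads at WT day 0. The ratios were not refitted with a library left out. In KO, 5 ratios passed as well, and 0 of them were those of WT. With 5 of 31 passing in each genotype, few or none would be shared by chance alone, so this count says little. The difference between the genotypes in these ratios was not tested.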
